A study of Mus musculus with 8 samples.

Results

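The genes described here are the very long ones: autosomal gene rows whose annotated span, from the smallest exon start to the largest exon end, is 300000 bases or more. A row also had to hold at least 50 counts in at least 2 of the 8 libraries. Of 45706 rows in the table, 543 autosomal rows were that long and 285 of them passed the count rule. The other 258 long rows stayed below it, 26 of them with no count in any library. The rows were thus chosen by their annotated span and by their counts in these same libraries, so their levels are given as a description. Members are protein-coding in 282 cases.

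The measured RNA is the chromatin-associated fraction, which is rich in transcripts still being made, taken from C57BL/6 mouse embryonic fibroblasts in primary culture. Cells of genotype crel-/-rela-/- (KO), which lack the NF-kB subunits cRel and RelA, were set beside wild-type (WT) cells. All cultures were starved of serum overnight. Tumour necrosis factor (TNF), a cytokine that activates NF-kB, was given at 10 ng/ml for 15, 45 or 60 min, and the 0 min libraries are the untreated controls. There is 1 library per genotype and time, and no label ties a library to its own culture or embryo. Genotype and culture of origin therefore cannot be told apart, and p-values measure only the spread between these libraries. No untreated library accompanies 15, 45 or 60 min, so TNF cannot be told apart from time and handling. Which part of each allele was removed is not known here. Rela had 306, 241, 291 and 324 counts in KO at 0, 15, 45 and 60 min and 324, 406, 704 and 589 in WT, and Rel had 478, 308, 538 and 633 in KO and 151, 173, 805 and 506 in WT. Counts over a whole gene are therefore no check of these labels.

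Long genes put a physical constraint on a fast response. RNA polymerase II must cross every intron before it reaches the next exon, so the exons at the far end of a long gene receive newly made RNA later than those near the start. Many very long genes in mammals encode cell adhesion proteins, synaptic organizers, guidance receptors and transcription factors, and several are common fragile sites. The counts here cover exons only, and exons made up a median of 2.04% of the span of these rows. A median of 23 separate exon blocks and a largest intron with a median of 125.2 kb describe the usual layout.

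Spans ran from 300532 bases for Pam, which encodes an enzyme that amidates peptides, to 2960899 bases for Fgfr2, a receptor for fibroblast growth factors. The median span was 421.1 kb. Of the 285 rows, 98 reached 500 kb and 21 reached 1 Mb. Just outside the length rule lay Pde1c, a cyclic nucleotide phosphodiesterase gene, with a span of 299813 bases. At the edge of the count rule, the second-highest count was 50 for Esrrg, which was kept, and 49 for Thrb, which was not. In 245 rows all 8 libraries held 50 counts or more. In 9 rows only KO libraries reached 50, and in 10 rows only WT libraries did.

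A long row is not always a long main transcript. The annotation (GENCODE M21) marks a principal transcript for 282 of the members, and this transcript itself spanned 300 kb or more in 242. In 40 rows it was shorter, and in 11 it was under 100 kb. The principal transcript of Fgfr2 spans 102 kb inside a row that is stretched by an intron of 2815 kb. Other such rows are Pcdh7 (11 kb), Oxr1 (28 kb), Dlc1 (46 kb), Schip1 (54 kb), Slc7a11 (79 kb) and Rora (90 kb). A change in one of these rows may therefore come from a transcript that is not very long.

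The libraries held 12359817 to 15607331 counts, of which the 285 rows took 1.05% to 1.59%, or 144439 to 206989 counts. A count of 0 allows up to 3 counts, which is 0.18 to 0.265 CPM (counts scaled to a common library size, with the trimmed mean of M values, TMM, as the scaling). Each of 10 fibroblast markers had at least 10 counts in every library, with summed levels of 6648 to 8773 CPM in KO and 7433 to 10172 CPM in WT. The 8 macrophage and leukocyte markers summed to 6.04 to 8.21 CPM in KO and 51.1 to 72.0 CPM in WT. The KO 0 min library stood apart in cartilage markers, with 404 CPM summed over 6 genes. The other KO libraries had 38.8 to 67.4 CPM and the WT libraries 24.1 to 32.6 CPM. Its 6 epithelial markers summed to 7.3 CPM, and to at most 1.05 CPM in any other library.

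As a comparator, each member was matched to 1 autosomal row with a span of 10 to 50 kb that passed the same count rule and had the nearest mean log2 CPM over all libraries. The largest gap in a pair was 0.101 on that scale. Of 4694 such shorter rows, 285 were used, with a median span of 23 kb. Median exonic length was 9428 bases in the long rows and 4251 bases in the matched rows, so equal counts mean a lower level per length in the long rows. The matched rows were set side by side with the long rows and no test was made between the sets.

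The first question is whether exonic signal of the long rows changed by 15 to 60 min. Each later library was divided by the 0 min library of its genotype, and a row was counted if it differed by 2-fold or more, with a 95% Clopper-Pearson interval of the ratio that left out 1 and with 20 counts or more in the higher library. These ratios compare single libraries and carry no test. At 15 min none of the 285 long rows passed this rule in either direction in either genotype. Over all 15049 tested rows, 0.585% were higher and 1.15% lower in KO at 15 min. The shares in WT were 0.857% and 1.19%.

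At 45 min 3 long rows were higher and 1 lower in KO, against 2.58% and 2.78% of all rows. In WT 6 were higher and none lower, against 4.13% and 2.84%. At 60 min 1 was higher and 4 lower in KO, where the shares of all rows were 3.02% and 3.22%. In WT 5 were higher and 3 lower at 60 min, beside 5.01% and 3.35%. In each direction, genotype and time the share of long rows was below that of all rows, which include rows with fewer counts. At most 8 long rows passed at any time. Of the 285 matched rows, 1 was higher and 1 lower at 15 min in each genotype. At 45 min 3 were higher and 4 lower in KO, and 9 higher and 2 lower in WT. At 60 min the matched rows gave 6 higher and 5 lower in KO, and 15 higher and 2 lower in WT. The long rows were thus not below the matched rows in every direction, as with 3 lower in WT at 60 min. The long row lower in KO at 45 min was Shank2, a synaptic scaffold gene (log2 ratio -1.01). At 60 min the lower ones were Galnt13 (-1.32), the adhesion gene Cadm1 (-1.28), Pde4b (-1.26) and Umad1 (-1.06). In WT Dlgap1 (-1.47), Fam110b (-1.42) and Frmd4b (-1.05) were lower at 60 min. Of these rows, Shank2 and Galnt13 stayed below 50 counts in every KO library, and Dlgap1 in every WT library. Other rows on the same strand cover 51.9% of the exonic bases of Umad1, so its counts are uncertain. Higher were Schip1, Hivep3 and Bach2 in KO, and Schip1, Hivep3, Slc7a11, Mcc, Nr3c2 and, at 45 min alone, Ctnnd2 (1.17) in WT. When libraries were scaled by their total counts, the late median of all rows lay at -0.21 in KO and -0.22 in WT. By that scaling 15 long rows passed the size rule in WT at 60 min and 2 in each genotype at 15 min.

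The distribution of ratios was narrow. In KO the median log2 ratio of the long rows was 0.04 at 15 min, 0.02 at 45 min and -0.05 at 60 min, and that of the matched rows was -0.002, -0.05 and -0.05. In WT the long rows had medians of 0.07, 0.04 and -0.14 at these times, and the matched rows 0.02, 0.02 and 0.02. The WT 60 min library is the one where the sets lay furthest apart, by -0.16, and 82 of 285 long rows but 153 of 285 matched rows were above 0 in it. The interquartile range was smaller in the long rows at every time in both genotypes, for example 0.26 against 0.46 in KO at 45 min and 0.32 against 0.49 in WT at 45 min. Dock2, without a count at 0 min in KO, has no ratio there.

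**Figure D1:**
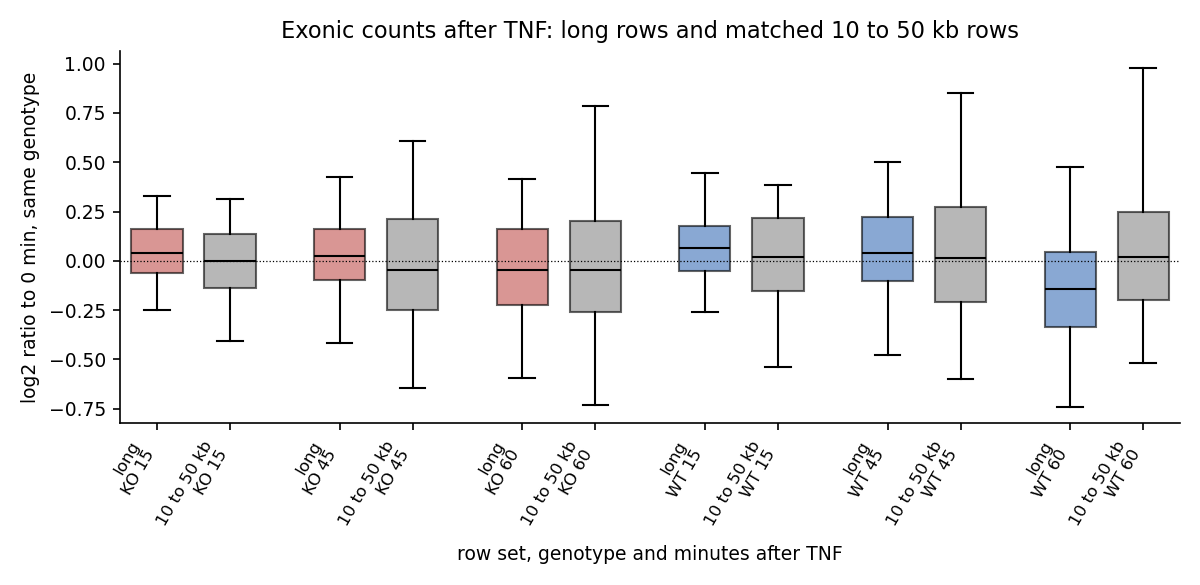
Log2 ratio of each library to the 0 min library of its genotype (y axis) for the 285 long rows (coloured, KO red and WT blue) and the 285 matched rows of 10 to 50 kb (grey), by genotype and minutes after TNF (x axis). Boxes span the quartiles with the median as a line, and whiskers reach the 5th and 95th percentiles; the boxes of long rows are narrower in all 6 pairs, and the WT 60 min box sits lowest, with a median of -0.14.

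The late response, the mean of 45 and 60 min against 0 min, was tested across all 15049 rows with the edgeR quasi-likelihood test and Benjamini-Hochberg adjustment. A row is called where the adjusted p is under 0.05. In KO 3 of 285 long rows were called, all higher, or 1.05%. Over all rows 1.83% were called, 1.32% higher and 0.518% lower, and 9 matched rows were called, all higher. No long row was called lower in KO by edgeR, while 13 had unadjusted p under 0.05 in that direction, and DESeq2 and limma-voom also called none lower. DESeq2 called 1 higher. With 15 min as the baseline, which leaves out the KO 0 min library that stood apart, no long row was called in KO.

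In WT 7 of the 285 were called, 5 higher and 2 lower, or 2.46%. Over all rows 5.48% were called, 4.17% higher and 1.31% lower. Among the matched rows 18 were called, all of them higher, or 6.32%, and among all 4694 rows of 10 to 50 kb 6.63% were. Without an adjustment, 31 long rows had p under 0.05. The gap to the matched rows closed with total counts, where 5 rows of each set were called. Median log2 fold changes were -0.01 in KO and -0.05 in WT for the long rows, and -0.04 in KO and 0.02 in WT for the matched rows. The WT median of the long rows was 0.03 without the 60 min library and -0.16 without the 45 min library. In both genotypes together 9 long rows were called, and Schip1 alone was called in each.

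Promoter sequences of 4 of the called rows are shown because some of these genes have more than 1 start, at distances from the row's 5' end that decide how much of the row a transcript must cross. RefSeq sequences (GRCm38.p6, the mm10 assembly) were found for 222 of the 285 members, with 342 entries, and 77 members had at least 2. Each line gives the 250 bases upstream of a transcript start, 5' to 3'. Capitals mark a match to a kappaB motif, written GGG, any 3 bases and then TTCC, or to an AP-1 motif, TGANTCA, on either strand. Of 32851 RefSeq promoters of this length 4.65% hold the first and 6.75% the second. Of the 342 entries of long rows 3.8% and 4.09% do. A match is a description of letters and not a binding site. For the called rows 11 entries are described here, and none of them is of Mcc or Fam110b. The 5 not printed, of Bach2, Nr3c2, Ebf1 and a second start of Ltbp1, hold neither motif.
Hivep3 (chr4:119814428-119814677, strand plus): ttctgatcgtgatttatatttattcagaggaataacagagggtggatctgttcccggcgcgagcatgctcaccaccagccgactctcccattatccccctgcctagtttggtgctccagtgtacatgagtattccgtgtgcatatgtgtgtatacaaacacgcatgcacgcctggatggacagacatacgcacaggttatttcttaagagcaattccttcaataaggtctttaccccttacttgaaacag
Schip1 (chr3:68064552-68064801, strand plus): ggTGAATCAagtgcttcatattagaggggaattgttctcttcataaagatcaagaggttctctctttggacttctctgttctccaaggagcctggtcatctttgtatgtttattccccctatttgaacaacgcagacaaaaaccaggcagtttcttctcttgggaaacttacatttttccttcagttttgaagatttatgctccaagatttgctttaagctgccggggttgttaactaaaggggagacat
Schip1 (chr3:68467933-68468182, strand plus): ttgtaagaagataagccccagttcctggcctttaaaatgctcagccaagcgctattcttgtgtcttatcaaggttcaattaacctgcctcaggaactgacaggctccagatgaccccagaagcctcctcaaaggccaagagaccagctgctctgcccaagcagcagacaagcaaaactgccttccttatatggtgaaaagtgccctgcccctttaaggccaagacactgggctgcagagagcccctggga
Schip1 (chr3:68572118-68572367, strand plus): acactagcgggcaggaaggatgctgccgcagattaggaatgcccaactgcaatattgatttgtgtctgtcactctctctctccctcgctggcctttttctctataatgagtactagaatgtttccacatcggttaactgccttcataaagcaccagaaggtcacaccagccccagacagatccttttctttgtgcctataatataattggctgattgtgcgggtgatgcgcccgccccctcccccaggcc
Slc7a11 (chr3:50443614-50443863, strand minus): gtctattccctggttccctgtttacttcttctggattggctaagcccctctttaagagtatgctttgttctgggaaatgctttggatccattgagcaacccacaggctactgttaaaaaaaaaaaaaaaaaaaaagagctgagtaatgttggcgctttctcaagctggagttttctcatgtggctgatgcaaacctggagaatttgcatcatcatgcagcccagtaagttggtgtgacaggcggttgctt
Ltbp1 (chr17:75005279-75005528, strand plus): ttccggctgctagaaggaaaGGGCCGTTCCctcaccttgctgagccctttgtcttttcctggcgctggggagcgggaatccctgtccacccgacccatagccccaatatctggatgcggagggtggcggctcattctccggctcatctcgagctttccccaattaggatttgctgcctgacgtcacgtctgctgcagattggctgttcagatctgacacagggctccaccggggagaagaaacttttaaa

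The 3 Schip1 starts show how much the row's length depends on the start. The first lies at the row's 5' end and holds the AP-1 letters. The second lies 403.4 kb further in, and the third 507.6 kb in, with 54.1 kb of the row left. Counts over all exons do not tell these starts apart. The Hivep3 entry starts 80.9 kb into its row, and the Slc7a11 entry at the row's 5' end. Ltbp1 holds the kappaB letters in the first of its 2 entries, the one at the row's start.

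The 5 long rows that rose in WT encode unrelated proteins. Hivep3 encodes the large zinc finger protein Schnurri-3, known for its part in bone formation (chr4:119733784-120138045 in mm10, plus strand, 404 kb). It had 8.44, 11.3, 18.0 and 16.7 CPM in KO at 0, 15, 45 and 60 min, and 7.40, 7.42, 23.9 and 35.1 CPM in WT. The genotypes were alike at 0 min, and the WT level at 60 min was the highest of the 8. Its late log2 fold change was 1.04 ± 0.26 in KO (SE, adjusted p = 0.0609, edgeR), short of the threshold, and 1.99 ± 0.27 in WT (adjusted p = 0.000846).

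Schip1 encodes schwannomin-interacting protein, a partner of the NF2 tumour suppressor (chr3:68064802-68626481, plus strand, 562 kb). KO libraries held 4.67, 5.12, 9.94 and 10.5 CPM at the 4 times, and WT libraries 4.20, 5.54, 15.0 and 15.7 CPM. Both late libraries lay above both early ones in each genotype. The log2 fold change was 1.13 ± 0.24 in KO (adjusted p = 0.0379, edgeR) and 1.87 ± 0.25 in WT (adjusted p = 0.000801). In KO the call was lost without the 45 min or the 60 min library, at 1.17 and 1.09. It was also lost with DESeq2 (adjusted p = 0.186), total counts (0.248), no filter on low counts (0.139) and 15 min as baseline (0.0913). Other rows on the same strand cover 39.1% of its exonic bases, so its counts are uncertain.

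Slc7a11 encodes the light chain of the cystine and glutamate exchanger, which supplies cystine for glutathione synthesis (chr3:49892526-50443614, minus strand, 551 kb). Its level was 10.5, 13.2, 20.1 and 12.9 CPM in KO and 10.1, 16.3, 36.7 and 27.1 CPM in WT. In WT it was highest at 45 min, and it was already above its 0 min level at 15 min. The late log2 fold change was 0.65 ± 0.28 in KO (adjusted p = 0.259, edgeR) and 1.65 ± 0.29 in WT (adjusted p = 0.0047). With 15 min as the baseline the WT value was 0.96 and not called. A gene model inside its row on the same strand, Gm37498, 39.3 kb from the start, had 24, 14, 38 and 21 counts in KO and 25, 18, 82 and 50 in WT, and was not called (1.51 ± 0.47, adjusted p = 0.0875, in WT).

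Mcc encodes a scaffold protein named for its mutation in colorectal cancers (chromosome 18, 387 kb). KO libraries had 49.6, 53.0, 58.7 and 59.4 CPM, and WT libraries 42.7, 48.7, 117 and 119 CPM. Both late WT libraries were about level and stood above every other library. The log2 fold change was 0.25 ± 0.16 in KO (adjusted p = 0.451, edgeR) and 1.47 ± 0.17 in WT (adjusted p = 0.000326). An antisense row inside it, A930012L18Rik, had at most 13 counts in KO and 12, 12, 33 and 33 in WT. Since the strand setting of the counting is not given, reads of such a pair cannot be told apart with certainty.

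Nr3c2 encodes the mineralocorticoid receptor, a nuclear receptor for aldosterone and glucocorticoids (chr8:76899442-77245012, plus strand, 346 kb). It had 5.74, 4.33, 4.21 and 3.15 CPM in KO and 5.73, 4.90, 11.5 and 14.3 CPM in WT. The 0 min values were nearly equal, and at 60 min the WT level was the highest and the KO level the lowest of the 8. The log2 fold change was -0.64 ± 0.29 in KO (adjusted p = 0.268, edgeR) and 1.17 ± 0.27 in WT (adjusted p = 0.0245). Without the WT 60 min library the WT value was 1.00 (adjusted p = 0.0536), and the call was lost. It was also lost with DESeq2 (1.17, adjusted p = 0.21), total counts (0.97, adjusted p = 0.149) and no filter on low counts (1.18, adjusted p = 0.11).

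Fam110b and Ebf1 fell in WT. Fam110b, which encodes a protein found at centrosomes, had 54.6, 54.4, 32.8 and 39.3 CPM in KO and 103, 102, 53.5 and 38.5 CPM in WT. Its log2 fold change was -0.60 ± 0.21 in KO (adjusted p = 0.16, edgeR) and -1.17 ± 0.20 in WT (adjusted p = 0.0045). Ebf1, a transcription factor gene known from B cells and also used in mesenchymal cells, had 91.0, 91.2, 85.5 and 86.2 CPM in KO and 148, 134, 102 and 80.7 CPM in WT. Here the WT level came down to the KO level by 60 min, while the KO libraries stayed within a narrow band. Its log2 fold change was -0.08 ± 0.18 in KO (adjusted p = 0.848) and -0.69 ± 0.18 in WT (adjusted p = 0.039), and without the WT 60 min library it was -0.54 (adjusted p = 0.198) and not called. DESeq2 (adjusted p = 0.0621), total counts (0.0536), no filter (0.154) and 15 min as baseline (0.11) also ended the call of Ebf1.

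Bach2 and Ltbp1 rose in KO. Bach2, a transcriptional repressor gene best known in lymphocytes (chr4:32238804-32586108, plus strand), had 7.84, 8.30, 16.5 and 15.5 CPM in KO and 6.93, 6.98, 8.38 and 9.69 CPM in WT. The log2 fold change was 1.03 ± 0.22 in KO (adjusted p = 0.0414, edgeR) and 0.38 ± 0.23 in WT (adjusted p = 0.42). A short row inside it, Bach2it1, 13 kb from the start and on the same strand, had 17, 8, 44 and 58 counts in KO and 12, 11, 22 and 21 in WT. This row also rose in KO (1.94 ± 0.42, adjusted p = 0.0404). Ltbp1, which encodes a protein that tethers latent TGF-beta in the matrix, had 64.1, 70.1, 106 and 107 CPM in KO and 52.9, 45.9, 61.5 and 65.6 CPM in WT. Its log2 fold change was 0.73 ± 0.17 in KO (adjusted p = 0.0468) and 0.27 ± 0.16 in WT (adjusted p = 0.427). Without the KO 45 min or the KO 60 min library both calls were lost, with Bach2 at 0.99 and 1.08 and Ltbp1 at 0.74 and 0.72. The baseline of the KO calls is the 0 min library with high cartilage markers, and with 15 min as baseline Schip1 was at 1.00, Bach2 at 0.95 and Ltbp1 at 0.60, none of them called.

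**Figure D2:**
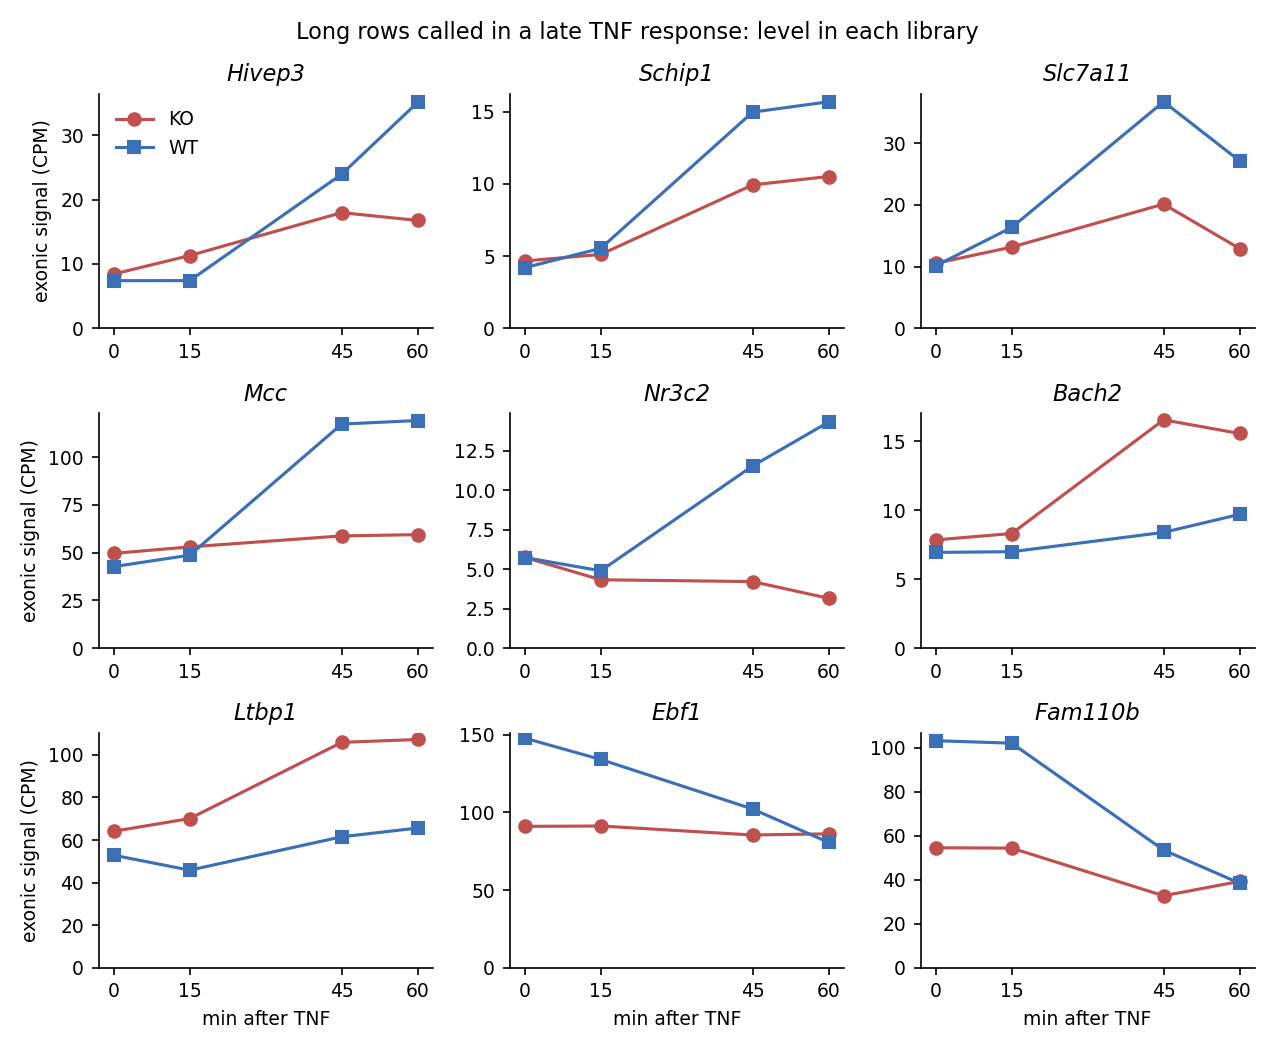
Exonic signal in CPM (y axis, from 0) against minutes after TNF (x axis) for the 9 long rows called in a late response, in KO (red circles) and WT (blue squares), 1 library per point. Mcc, Nr3c2, Slc7a11 and Hivep3 part between the genotypes at 45 and 60 min, and Mcc reaches 117 and 119 CPM in WT.

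The difference between the responses, KO minus WT, was tested in the same fit. Mcc was called, at -1.22 ± 0.23 (adjusted p = 0.0407, edgeR), and no long row was called with a larger log2 response in KO. Called or not, the difference was above 0 in 164 of the 285 long rows. Over all rows 0.498% were called, 0.492% with a smaller and 0.00664% with a larger response in KO. Among the matched rows 2 were called. At an unadjusted p under 0.05 there were 15 long rows, 6 larger and 9 smaller in KO. The call of Mcc was lost without the KO 45 min library (-1.21, adjusted p = 0.0742) and without the KO 60 min library (-1.23, adjusted p = 0.0716). Nr3c2 had the larger size of difference, -1.81 ± 0.39, and an adjusted p of 0.0736. Hivep3 (-0.95 ± 0.36), Slc7a11 (-1.01 ± 0.39) and Schip1 (-0.74 ± 0.34) were also short of the threshold, so a different response in the genotypes is not shown for them.

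Where the exons lie along a row varied widely. The share of exonic bases within 100 kb downstream of an annotated protein-coding start had a median of 34.8%. For the called rows it was 100% in Schip1, 95.5% in Slc7a11, 93.4% in Fam110b, 88.6% in Hivep3 and 76.9% in Ltbp1. It was 51.7% in Ebf1, 41.1% in Nr3c2, 29.6% in Mcc and 15.5% in Bach2. Of the 142 rows above the median share, 2 were called in KO and 6 in WT, and of the 143 at or below it 1 was called in each genotype. Over all tested rows 1.83% were called in KO and 5.48% in WT. The split was made after earlier results were known, and no test was made of it. The genotype comparison below called 52 rows above and 56 at or below the median share, beside 37.9% of all long rows and 16.3% of all rows.

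**Figure D3:**
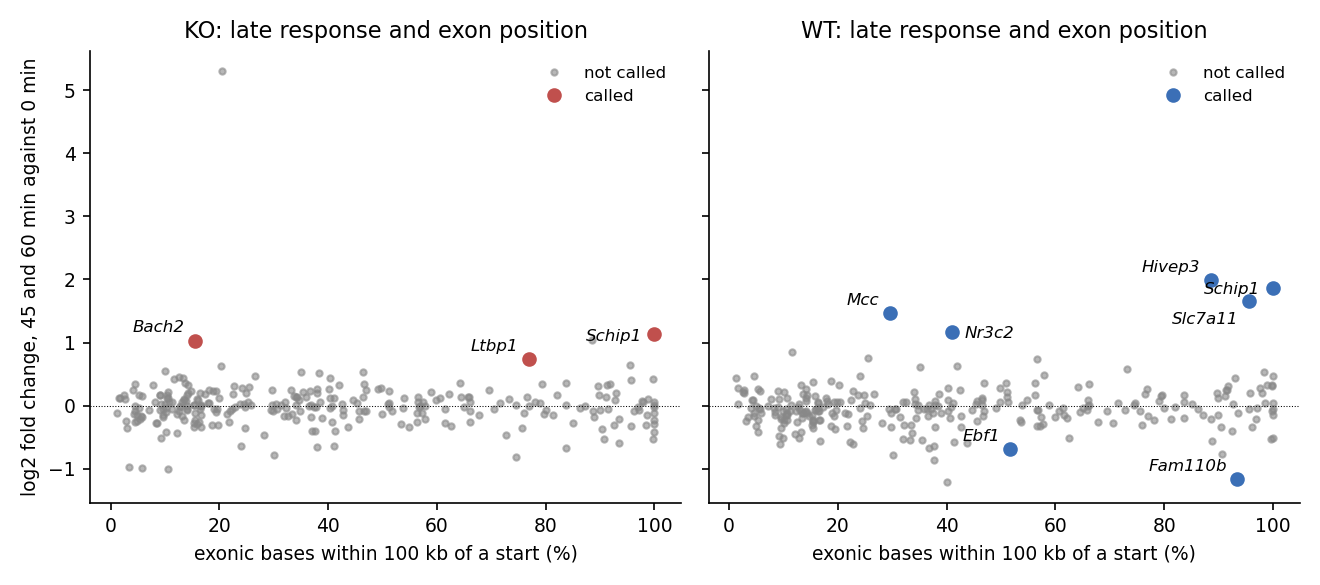
Late log2 fold change (y axis) against the share of a row's exonic bases within 100 kb downstream of an annotated start (x axis, percent), for 285 long rows in KO (left) and WT (right). Large coloured points are called rows; 6 of the 7 WT calls lie above the median share of 34.8%, and the grey KO point above 5 is Dock2, which has 0 counts at 0 min in KO.

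The second question is whether the long rows differ by genotype. KO and WT were compared over all 8 libraries with time as a block, so each time gives 1 pair. Of the 285 long rows 108 were called, 51 higher and 57 lower in KO, or 37.9%. Over all rows 16.3% were called, 6.81% higher and 9.44% lower. Among the matched rows 40 were called, 18 higher and 22 lower, or 14.0%, and among all rows of 10 to 50 kb 14.6% were. When the shorter rows were instead matched on CPM per exonic kb, 20.4% of them were called. The CPM of KO and WT libraries did not overlap in 106 long rows, or 37.2%, of which 87 were called, against 13.0% of the matched rows and 13.6% of all rows.

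The share called was larger in each longer class of span from 10 kb upward. It was 14.6% of rows of 10 to 50 kb, 19.3% at 50 to 100 kb, 27.2% at 100 to 300 kb, 35.3% at 300 to 500 kb and 42.9% at 500 kb or more. Rows under 3 kb, with 19.5%, and of 3 to 10 kb, with 16.4%, lay above the 10 to 50 kb class. The late responses did not follow this order. In KO 1.94%, 2.52%, 2.98%, 1.07% and 1.02% of rows were called in the 5 classes from 10 to 50 kb upward, and in WT 6.63%, 8.47%, 8.27%, 2.67% and 2.04%. The classes differ in depth too, with a median of the mean count per library of 204.7 at 10 to 50 kb, 335.5 at 100 to 300 kb and 294.1 at 500 kb or more.

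**Figure D4:**
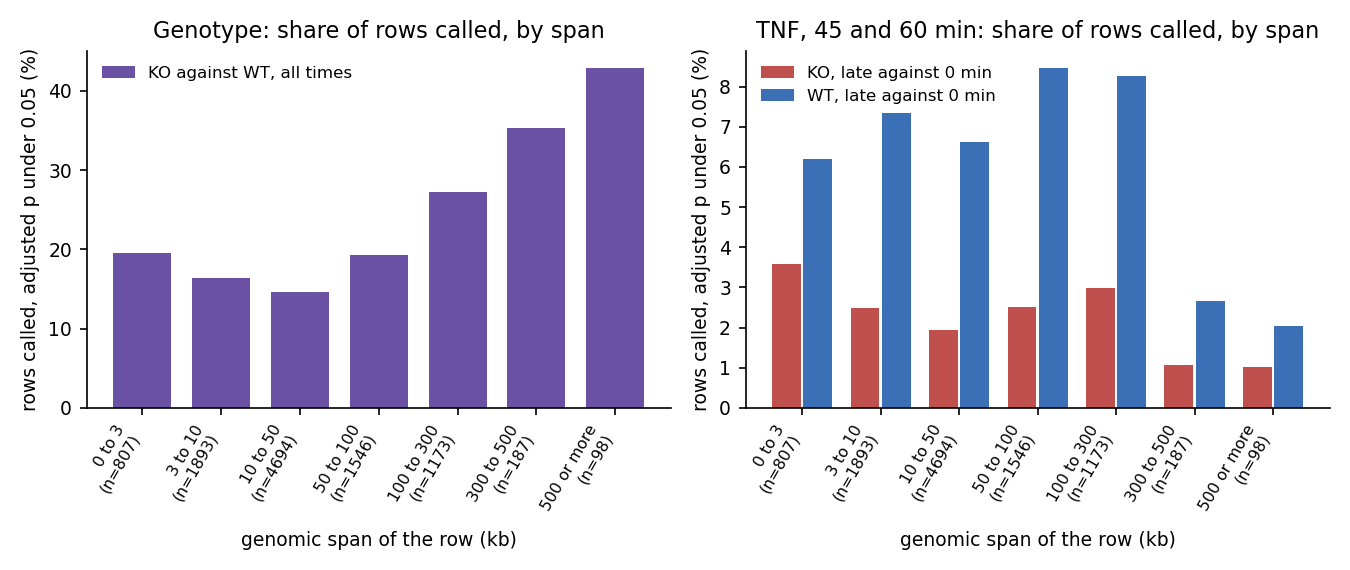
Share of rows called at an adjusted p under 0.05 (y axes, percent, from 0, on different scales) by genomic span of the row in kb (x axes, with the number of rows), for KO against WT (left) and for the late responses of KO (red) and WT (blue) (right). The genotype share climbs to 42.9% in the longest class, and the late WT share drops to 2.67% and 2.04% in the classes of 300 kb and more.

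The differences were mostly modest in size. The median absolute log2 fold change of the 108 called rows was 0.63, and it was 0.64 for the 40 matched rows called. Beyond 2-fold were 20 of the 108, 9 higher and 11 lower, and 12 of the 40 matched rows called. Called or not, 20 of the 285 long rows lay beyond 2-fold, beside 1028 of all 15049 rows, a similar share. All rows include rows with fewer counts. The quartiles of all log2 fold changes lay at -0.28 and 0.23 in the long rows and at -0.13 and 0.18 in the matched rows, while the median standard error was 0.096 and 0.103. With 50 counts in all 8 libraries required in both sets, 35.9% of 245 long rows and 12.7% of their matched rows were called. That filter drops rows that are low in 1 genotype. For 19 rows a difference in level was built into their choice, since they reached 50 counts in the libraries of 1 genotype only, and no p is given for them. Among those named here, Esrrg, Dlgap1, Lrp1b, Dlg2, Ntng1, Nell2 and Kcnq5 reached it in KO only, and Dock2, Inpp4b, Galnt13, Akap6, Shank2 and Lrrc4c in WT only. Of the other 266 long rows 35.0% were called.

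Scaling moved the split between directions. Scaled by total counts, the median log2 fold change of all rows was -0.17 in place of 0.01. By that scaling 31 long rows were higher and 103 lower in KO, so the share of calls that were higher was 23.1% in place of 47.2%. The counts by direction below therefore hold relative to the centre set by TMM. Fewer rows were called when 1 library was left out: 69 without KO 45 min and 70 without WT 45 min. Without KO 0 min, the library that stood apart, 99 were called, 47 higher and 52 lower.

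The lowest log2 fold change belonged to Dock2, a Rac activator used by leukocytes (chr11:34226815-34783892, minus strand, 557 kb). It had 0, 7, 4 and 5 counts in KO and 214, 171, 219 and 192 in WT, with a log2 fold change of -5.51 ± 0.34, and it is a member through its WT counts alone. The KO libraries are near the floor and do not overlap with WT. Leukocyte markers such as Ptprc and Adgre1 moved with it. Ptprc had 1, 2, 0 and 1 counts in KO and 188, 168, 156 and 144 in WT, and Adgre1 had 0, 0, 0 and 2 in KO and 132, 112, 72 and 88 in WT. Cd68, on the same list, differed far less, with 93, 77, 67 and 78 counts in KO and 131, 119, 88 and 75 in WT. The part of such cells in the Dock2 result was not tested, and fewer cells of a type and less RNA per cell cannot be told apart in these bulk samples. Elmo1, whose product pairs with DOCK proteins to activate Rac, was also lower, at 5.74, 6.89, 7.71 and 8.86 CPM in KO and 12.7, 12.8, 15.0 and 12.1 CPM in WT (-0.86 ± 0.13, adjusted p = 0.00164).

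Among the 38 members on the list of signalling enzymes and scaffolds, 4 were higher and 9 lower in KO. That share of calls is near the 37.9% of all long rows, beside 16.3% of all rows. The 9 lower ones include Dock2 and Inpp4b, for which a lower level in KO was built into their choice. Pde4b, a phosphodiesterase gene that degrades cyclic AMP, had 12.0, 11.8, 8.74 and 5.03 CPM in KO and 20.3, 26.9, 25.1 and 15.8 CPM in WT (-1.25 ± 0.14, adjusted p = 0.000307, edgeR). Inpp4b, an inositol lipid phosphatase gene, was at -1.22 ± 0.18 and Ryr3, a calcium release channel gene, at -0.96 ± 0.10. Plce1, the gene of phospholipase C epsilon, went the other way, with 95.5, 102, 102 and 101 CPM in KO and 43.1, 46.7, 45.5 and 37.5 CPM in WT (1.21 ± 0.08, adjusted p = 1.27e-05). Each KO library had more than 2 times the level of every WT library for it. Cacna2d1, a calcium channel subunit gene, was higher as well (0.80 ± 0.08). The median log2 fold change of the list was -0.09, and with total counts 3 were higher and 18 lower.

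Of 32 transcription and chromatin regulators, 11 were higher and 2 lower in KO, with a median of 0.08. The share called is near the 37.9% of all long rows, of which 51 were higher and 57 lower, and 16.3% of all rows were called. Esrrg, an orphan nuclear receptor gene, had 50, 42, 50 and 70 counts in KO and 9, 4, 12 and 9 in WT (2.70 ± 0.27). It passed the count rule through the KO libraries, so a difference in level was built into its choice. Foxp1 and Foxp2, which encode forkhead repressors, were both higher, by 0.71 ± 0.08 and 0.81 ± 0.09. Foxp1 had 104, 123, 129 and 134 CPM in KO and 70.3, 72.1, 83.6 and 72.9 CPM in WT. The predicted row Gm20696, which overlaps Foxp1 and has 27.7% of its exonic bases in other rows of its strand, was at 1.16. Bnc2, a zinc finger gene of fibroblasts, was at 0.62 ± 0.07, and the called rows that fell were Nfia (-0.28) and Rora (-0.30). With total counts 7 regulators were higher and 5 lower, and the median of the list was -0.10.

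Sox5 and Sox6, the partners of Sox9 in cartilage formation, were at 0.70 ± 0.15 and 1.03 ± 0.14. Sox6 had 10.1, 8.30, 9.54 and 9.84 CPM in KO and 5.33, 4.90, 4.44 and 3.76 CPM in WT. The sum of the 6 cartilage markers was highest in the KO 0 min library. Col2a1 had 5219, 91, 114 and 389 counts in KO at the 4 times and 27, 14, 15 and 17 in WT. Acan, Col9a1 and Sp7 also had their most counts in KO at 0 min. Sox9 and Runx2, on the same list, differed far less. Sox9 had 178, 97, 157 and 152 counts in KO and 109, 76, 82 and 130 in WT. Runx2 had 308, 233, 279 and 277 counts in KO and 348, 334, 233 and 208 in WT. Each KO library exceeded each WT library for Sox6. The part of cartilage cells in the Sox5 and Sox6 results was not tested.

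Of 15 guidance and growth factor genes, 6 were higher and 6 lower in KO, beside 16.3% called of all rows and 37.9% of all long rows. The 6 higher ones include Ntng1, which was chosen through KO counts alone. The lists were not tested against each other. Both secreted Slit ligands, which repel axons and migrating cells, were lower. Slit3 (chr11:35121224-35708507, plus strand, 587 kb) had 87.5, 91.9, 95.9 and 93.6 CPM in KO and 181, 152, 166 and 159 CPM in WT (-0.83 ± 0.08, adjusted p = 9.86e-05, edgeR). Slit2, at 345 to 383 CPM in KO and 398 to 517 CPM in WT, differed by -0.34 ± 0.08 (adjusted p = 0.0153). Their receptors went apart, Robo1 at 0.47 ± 0.07 and Robo2 at -0.37 ± 0.08.

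Other ligands of this group that were lower in KO were the semaphorin genes Sema5a and Sema3a. Sema5a had 38.9, 38.1, 40.2 and 36.9 CPM in KO and 96.4, 91.4, 95.2 and 83.5 CPM in WT (-1.25 ± 0.07, adjusted p = 6.14e-06, edgeR), and Sema3a was at -0.68 ± 0.09. The ephrin receptor gene Epha3 was at -0.31 ± 0.08. Higher were the netrin receptor gene Unc5c (0.85 ± 0.08), the membrane-anchored netrin relative Ntng1 (1.57 ± 0.17), the BMP receptor gene Bmpr1b (0.76 ± 0.13), Plxdc2 (0.40 ± 0.08) and Fgfr2 (0.38 ± 0.08). Unc5c had 101, 116, 103 and 87.3 CPM in KO and 65.0, 59.0, 54.8 and 47.9 CPM in WT. Unc5c and Bmpr1b lie next to each other on chromosome 3, ending at 141834924 and starting at 141837136. With total counts 3 genes of this list were higher and 7 lower.

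Adhesion and synaptic organizer genes gave 10 higher and 5 lower of 28, beside 37.9% called of all long rows and 16.3% of all rows. The 10 higher ones include Lrp1b, Dlgap1 and Dlg2, for which a higher level in KO was built into their choice. Fat3, which encodes a giant atypical cadherin, had 24.4, 21.2, 23.7 and 20.7 CPM in KO and 75.7, 79.0, 81.8 and 76.1 CPM in WT (-1.80 ± 0.08, adjusted p = 1.15e-06, edgeR). The spread within each genotype was small beside the gap between them. Lrp1b, a 2058 kb member of the LDL receptor family and a known fragile site, had 5.50, 6.89, 5.33 and 4.36 CPM in KO and 1.60, 2.59, 1.58 and 1.66 CPM in WT (1.58 ± 0.17), where KO counts alone made it a member. Dlgap1, a postsynaptic scaffold gene, was at 1.88 ± 0.28 from 39 to 54 counts in KO and 8 to 24 in WT, and it too was chosen through KO counts alone. Ptprk, a receptor phosphatase gene, was at 0.79 ± 0.08, Magi1, a junction scaffold gene, at 0.65 ± 0.08 and Ctnnd2, the delta-catenin gene, at 0.93 ± 0.16. With total counts 7 were higher and 7 lower.

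Neuron markers give a measure of other cells here. The 8 markers summed to 84.9 to 105 CPM in KO and 125 to 158 CPM in WT, most of it from Map2, and Rbfox3 had 0 counts in all 8 libraries. Snap25 had at most 5 counts in any library. Syt1 and Tubb3 ran the other way from the sum, with 35, 19, 27 and 20 counts of Syt1 in KO and 15, 11, 19 and 6 in WT, and 48, 34, 30 and 35 counts of Tubb3 in KO and 34, 27, 16 and 26 in WT. The part of such cells in the guidance and synaptic results was not tested.

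Matrix and matrix-linked genes gave 6 higher and 2 lower of 14, where 37.9% of all long rows and 16.3% of all rows were called. The 6 include Nell2 and the 2 include Galnt13, each chosen through the counts of the genotype where it is higher. Nell2, a secreted glycoprotein gene, had 5.33, 5.03, 5.41 and 4.36 CPM in KO and 2.13, 1.22, 1.93 and 1.52 CPM in WT (1.56 ± 0.18), and it is a member through KO counts alone. Ltbp1, described above for its late rise, was also higher over all times (0.60 ± 0.09), as were the protease gene Adamts17 (0.73 ± 0.12), Thsd7a (0.65 ± 0.12), and the basement membrane genes Fras1 (0.44 ± 0.09) and Hmcn1 (0.32 ± 0.07). Galnt13, whose enzyme starts O-linked glycans, had 2.81, 2.74, 1.67 and 1.13 CPM in KO and 5.60, 6.12, 4.59 and 4.99 CPM in WT (-1.37 ± 0.20). Lama2, the laminin alpha chain of muscle, was at -0.34 ± 0.07. With total counts 4 were higher and 5 lower.

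Cytoskeleton and membrane traffic genes gave 2 higher and 7 lower of 31. This is a smaller share than the 37.9% called of all long rows and a larger one than the 16.3% of all rows. Ccser1, a fragile-site gene of 1203 kb that encodes a coiled-coil protein, had 15.6, 19.6, 19.2 and 16.8 CPM in KO and 5.73, 5.54, 6.88 and 4.63 CPM in WT (1.64 ± 0.12, adjusted p = 1.83e-05, edgeR). Every KO library had over 2 times the level of every WT library. Ank3, the ankyrin-G gene, was at 0.39 ± 0.09. Lower were Dnm3, a dynamin gene (-0.76 ± 0.13), Kif26b, a kinesin-like gene (-0.48 ± 0.08), Cep128 (-0.52 ± 0.12), Sorcs2 (-0.40 ± 0.09), Vps13b (-0.34 ± 0.07), Tanc2 (-0.30 ± 0.08) and Macf1, a spectraplakin that joins actin and microtubules (-0.27 ± 0.07). The call of Vps13b was lost without the KO 15 or KO 45 min library (-0.32 and -0.33) and without the WT 15 or WT 45 min library (-0.32 and -0.33). With total counts 1 was higher and 14 lower.

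Of 25 broadly used and fragile-site genes, 2 were higher and 3 lower, a share near the 16.3% of all rows. The list does not hold every fragile-site gene: Lrp1b and Ccser1, both higher in KO, stand on other lists. Msi2, an RNA-binding protein gene of stem cells, had 37.3, 38.2, 35.8 and 33.9 CPM in KO and 19.7, 23.6, 23.4 and 22.6 CPM in WT (0.70 ± 0.09, adjusted p = 0.000564, edgeR). Ldlrad4 (0.29 ± 0.08) was the other higher one, and its call was lost when any single library was left out, with values of 0.26 to 0.31. Fggy, a carbohydrate kinase gene (-0.50 ± 0.13), lost its call without any of the 15, 45 or 60 min libraries of either genotype, with values of -0.43 to -0.52. With total counts 1 was higher and 8 lower.

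Of 106 members on no list, 10 were higher and 24 lower, beside 37.9% called of all long rows and 16.3% of all rows. Lingo2, a neuronal leucine-rich repeat gene of 1245 kb, had 4.13, 4.06, 4.37 and 4.21 CPM in KO and 12.8, 11.1, 13.3 and 10.3 CPM in WT (-1.50 ± 0.12, adjusted p = 4.08e-05, edgeR). Frmd4b, a FERM domain gene (-1.33 ± 0.17), Hs3st5, a heparan sulfate sulfotransferase gene (-1.28 ± 0.12), and Akap6, an anchor for protein kinase A (-1.22 ± 0.19), were the next lowest. Kcnq5, a potassium channel gene, was higher (0.91 ± 0.24), and the call was lost without any of the 15, 45 or 60 min libraries of either genotype, with values of 0.72 to 0.88. Kcnq5 is a member through KO counts alone and Akap6 through WT counts alone, so a difference in level was built into their choice. Members named beyond the largest changes and the smallest p of each list were chosen after their values were seen.

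**Figure D5:**
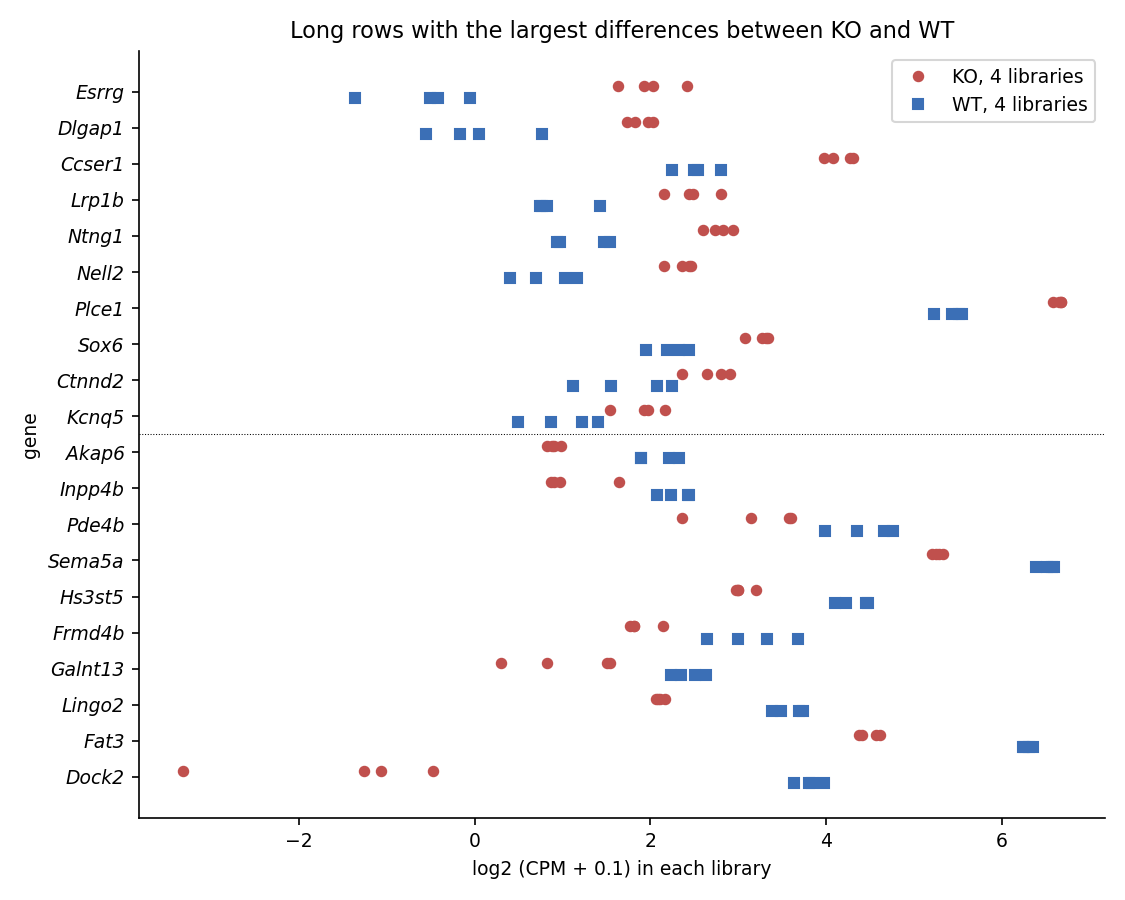
Log2 of CPM + 0.1 in each library (x axis) for the 10 called long rows with the highest and the 10 with the lowest log2 fold change of KO against WT, predicted gene models left out; KO libraries are red circles drawn above the blue squares of WT in each row. KO and WT points do not overlap in any of the 20 genes, which were picked for the size of this difference, and Dock2 has a KO library at 0 counts. Esrrg, Dlgap1, Lrp1b, Ntng1, Nell2 and Kcnq5 reached 50 counts in KO only, and Dock2, Galnt13, Inpp4b and Akap6 in WT only. For these genes a difference in level was built into their choice.

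Per exonic kb the highest mean was 23.2 CPM for Utrn, the utrophin gene, followed by Macf1 with 22.0 and Pcdh7, a protocadherin gene, with 21.3 CPM per kb. Utrn had 286, 273, 286 and 308 CPM in KO and 283, 273, 299 and 292 CPM in WT, a log2 fold change of 0.01 ± 0.07 between genotypes. Macf1 and Pcdh7 (0.31 ± 0.07) were called, in opposite directions. Exoc4, an exocyst gene, was at -0.10 ± 0.07 and Dock1, a Rac activator gene used in many tissues, at -0.15 ± 0.08, neither called. Among the 10 longest rows, Ptprd (-0.38 ± 0.07) and Lingo2 were lower in KO, Fgfr2, Lrp1b and Dlg2 (0.81 ± 0.18) were higher, and Pde4d, Magi2 and Lrrc4c were not called. None of these named rows was called in the late response of either genotype, where 1.02% of rows of 500 kb or more were called in KO and 2.04% in WT.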

How the data were processed

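The labels' protocols describe 8 ribosome-depleted libraries of chromatin-associated RNA, read from a single end. The submitters' processing notes name cutadapt 1.12, STAR, featureCounts 1.5.0, DESeq2 and mm10. What the authors deposited are raw counts, whole numbers for each gene, and the deposited length equalled the merged exons in 100% of rows. Neither the strand setting nor the annotation release is stated; 98.77% of rows received a symbol by identifier, and 213 of 285 members have the start and end of GENCODE M21. Tested rows had 10 counts or more in 2 or more libraries. TMM factors of 0.817 to 1.215 scaled the libraries, and the test was that of edgeR 4.0.16 in R 4.3.3: 6 cell means for the late response (2 residual degrees of freedom), time as a block for genotype (3). Alternatives used DESeq2 1.42.0, limma 3.58.1, other scalings, filters and baselines, and each library left out. Intervals are exact Clopper-Pearson at 95% and, like floors, cover counting error only. Members, lists and comparators were chosen with earlier results of these data known. Named genes are the 10 highest and 10 lowest called members per contrast with a mean of at least 20 counts, without predicted models, the 4 smallest p per list, the 10 longest, the 10 highest per exonic kb and the largest single-time ratios. Rows on sex chromosomes (15 long ones that pass the count rule) were not used. Values of some genes are not reported here.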

Additional observations from a re-analysis of the deposited data

Results flagged for a closer look

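The late response of Mcc differed between the genotypes by a test of the difference itself, at -1.22 ± 0.23 on the log2 scale, KO minus WT (adjusted p = 0.0407, edgeR). The response was 0.25 ± 0.16 in KO and 1.47 ± 0.17 in WT, and the size of the difference lay between -1.12 and -1.23 in the 6 of 16 alternatives that ended the call.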

How the results depend on the processing

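Each late fit has 2 residual degrees of freedom, in which the 2 late times take the place of replicates, and the lone 0 min library is assumed to vary like the others. Of 48 calls of named genes, DESeq2 ended 7, no filter on low counts 8, total counts 7 and 15 min as baseline 6 of 11. No paired analysis was possible because the labels carry no replicate numbers, other than the pairing of KO and WT by time that the genotype fit already holds. Long rows called in the late KO response numbered 3, against 1 with DESeq2, 0 with total counts, no filter or 15 min as baseline, 8 with 0 and 15 min together, and 0 to 5 when each library was left out (0 without KO 45 min or KO 60 min, 5 without WT 60 min). In WT they numbered 7, against 14 where the baseline pooled 0 and 15 min and 3 when low counts were not filtered. For the difference the 1 call became 0 with total counts, TMM factors from rows of 10 to 50 kb, no filter or 15 min as baseline, 2 with 0 and 15 min together, and 0 to 2 when each library was left out (2 without WT 45 min or WT 60 min). The 108 genotype calls became 65 without the time block, all 65 among the 108, and 69 to 99 when each library was left out. By the size rule with total counts, the long rows counted were 2 in KO at 15 min, 8 in KO at 45 min, 2 in WT at 15 min and 15 in WT at 60 min; with 15 min as baseline 1 was counted in KO at 45 min. The share called, long rows minus matched rows, in percentage points, was, in the late KO response, -2.11, and -0.351 with total counts or with matching on CPM per exonic kb, and -4.21 to -1.05 when each library was left out. In WT it was -3.86, and 0 with total counts. For genotype it was 23.9, 17.5 with matching on CPM per exonic kb, and 16.1 to 21.4 when each library was left out. The cause was not tested. Calls lost in KO for Schip1, Bach2 and Ltbp1 came with 6 of 17 alternatives each.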
